A study of Mus musculus with 16 samples.

Results

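This account describes 10 genes for the recruitment of monocytes and neutrophils in infarcted and sham-operated neonatal mouse hearts. They were 9 chemokine ligands (Ccl2, Ccl3, Ccl4, Ccl6, Ccl7, Ccl8, Ccl9, Ccl12 and Cxcl1) and 1 receptor (Ccr2), chosen by name, and all 10 had a row among the 22468 genes of the deposited count table. Polyadenylated RNA of whole ventricles, with tissue from above and below the ligated artery, had been sequenced in 16 samples. There were 4 samples in each of 4 groups: KO-MI (Chrna7 knockout after myocardial infarction, MI), KO-SH (Chrna7 knockout after sham surgery), WT-MI (wild type after infarction) and WT-SH (wild type after sham surgery). The knockout was the Jax #003232 line, in which the alpha-7 nicotinic acetylcholine receptor gene is disrupted in every cell, not in a chosen cell type. The labels used here state neither the day of harvest, nor the sex, nor whether samples came from separate animals, so the p-values below measure the spread between these samples only. The series title frames the study as one of the cholinergic anti-inflammatory pathway in heart regeneration.

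Chemokines are small secreted proteins that direct the movement of leukocytes through G protein-coupled receptors. Ccl2, Ccl7, Ccl8 and Ccl12 are the mouse monocyte chemoattractant proteins, and Ccl2 and Ccl7 draw Ccr2-bearing inflammatory monocytes out of the bone marrow and into injured tissue, the heart included. Cxcl1 attracts neutrophils through Cxcr2, Ccl3 and Ccl4 are inflammatory CC chemokines of macrophages, and Ccl6 and Ccl9 are mouse CC chemokines made by myeloid cells that act on Ccr1. Many chemokine promoters respond to NF-kB, the transcription factor family activated by inflammatory cytokines.

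Promoter sequences were available for 7 of the 10 genes (Ccl3, Ccl6, Ccl8, Ccl9, Ccl12, Cxcl1 and Ccr2) as RefSeq windows of 250 bases before to 50 bases after the transcription start in build GRCm38.p6. Ccl2, Ccl4 and Ccl7 had no entry in that table. The 120 bases before the start are shown for 5 ligands, because these windows hold the motif matches nearest to a start and because Ccl6 and Ccl9 are neighbours whose RNA levels ran closely together. Each is written 5′ to 3′ on the gene's strand, with capitals marking a match to a searched motif. The windows are chr11:82101725-82101844 (+ strand) for Ccl12, chr11:82115065-82115184 (+) for Ccl8, chr11:83593088-83593207 (−) for Ccl6, chr11:83578637-83578756 (−) for Ccl9 and chr5:90891125-90891244 (+) for Cxcl1.
Ccl12: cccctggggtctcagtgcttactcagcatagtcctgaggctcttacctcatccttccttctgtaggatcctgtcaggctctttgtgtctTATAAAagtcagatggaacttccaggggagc
Ccl8: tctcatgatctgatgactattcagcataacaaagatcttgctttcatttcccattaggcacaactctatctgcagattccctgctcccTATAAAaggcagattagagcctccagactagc
Ccl6: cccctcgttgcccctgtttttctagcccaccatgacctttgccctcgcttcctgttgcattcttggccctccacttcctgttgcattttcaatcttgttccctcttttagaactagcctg
Ccl9: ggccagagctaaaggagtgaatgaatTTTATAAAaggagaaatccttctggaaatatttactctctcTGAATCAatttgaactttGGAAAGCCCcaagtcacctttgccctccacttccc
Cxcl1: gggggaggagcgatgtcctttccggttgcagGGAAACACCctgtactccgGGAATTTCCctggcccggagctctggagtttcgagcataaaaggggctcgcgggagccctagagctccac

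The searched motifs were GGNNTTTCC (NF-kB type), TGANTCA (AP-1), TTGCNNAA (C/EBP type) and TATAAA, each on both strands. Cxcl1 held 2 NF-kB type matches, beginning 89 bases (minus strand) and 70 bases (plus strand) before the start. Ccl9 held 1 such match 35 bases before the start on the minus strand and an AP-1 match 53 bases before it. An NF-kB type match occurred in 5.82% of all 32851 promoters in the table and an AP-1 match in 7.81%. Ccl12 and Ccl8, which are adjacent on chromosome 11, both had TATAAA on the gene's strand, 31 and 32 bases before the start, where a TATA box usually lies. TATAAA on the gene's strand was present in 8.32% of all promoters, and in 13.6% when both strands were counted. In Ccl9 the capitals TTTATAAA are overlapping matches on opposite strands, 94 and 92 bases before the start, and a further match on the minus strand lay 224 bases before it, outside the stretch shown. Ccl3, Ccl6 and Ccr2 had no match to any motif in their windows, and none of the 7 had the C/EBP type letters, which 10.8% of promoters held. These matches are descriptions of letters, not of binding. The Ccl6 and Ccl9 windows shared an exact run of 13 bases upstream of the start, the longest of any pair among the 7, the next longest run being 9 bases.

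All ligands but Cxcl1 lie in 2 groups on chromosome 11. In the GRCm38 annotation Ccl2, Ccl7, Ccl12 and Ccl8 follow each other with only Ccl11 between them, their starts spanning 80 kb, and Ccl9, Ccl6, Ccl3 and Ccl4 lie together 1458 kb away with starts spanning 90 kb. Cxcl1 is on chromosome 5 and Ccr2 on chromosome 9. The longest exact run shared by transcripts of any pair of the 9 ligands was 25 bases (Ccl6 with Ccl9, and Ccl9 with Cxcl1), and no other annotated gene overlapped an exon of any of the 10 genes.

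Reads assigned to genes numbered between 10711442 and 17223580 per sample. Levels are given as CPM, the gene's count relative to a library size scaled by the trimmed mean of M values, on which scale 3 counts, the limit that a count of 0 allows, come to between 0.179 and 0.29 CPM. Intervals and floors cover counting error only. Cardiomyocyte markers summed to between 58810 and 101900 CPM in every sample. Chrna7 had 2 to 4 counts in KO-MI, 0 to 2 in KO-SH, 0 to 2 in WT-MI and 0 to 2 in WT-SH samples, so its RNA does not check the genotype labels. KO-SH samples stood apart from all others on the first principal component of log2 CPM (25.5% of the variance), with scores between 27.9 and 31.6 against at most 0.973 elsewhere, and every comparison below that uses KO-SH rests on them. Summed lung epithelium markers were highest in KO-MI replicate 4 (354.6 CPM), WT-MI replicate 3 (178.1 CPM) and WT-MI replicate 1 (157.3 CPM). They were at most 98.1 CPM elsewhere. For the ligands and receptor named at the start, results are also given without these 3 samples where that changes a call. Calls on the other genes named below and on the marker lists were not checked without these 3 samples.

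Most of these genes rose with infarction in knockout hearts. In KO-MI against KO-SH samples 6 of the 10 rose (Ccl2, Ccl6, Ccl7, Ccl9, Ccl12 and Ccr2), and none fell, in edgeR's quasi-likelihood test (adjusted p under 0.05 by Benjamini and Hochberg's method, 13412 genes tested). Of all tested genes 8.54% rose in that comparison. In WT-MI against WT-SH samples 2 of the 10 rose (Ccl6 and Ccl9), against 1.32% of tested genes. Ccl3, Ccl4 and Ccl8 fell below the filter on low counts, so that 7 genes were tested. The filter asked for about 0.742 CPM in enough samples, and Ccl7, Ccl12, Cxcl1 and Ccr2 passed it mainly through infarcted hearts, with 2, 1, 1 and 1 of the 8 sham samples above that level. All values of KO-MI samples lay above all values of KO-SH samples for Ccl2, Ccl6, Ccl7, Ccl8, Ccl9 and Ccl12, a separation that 11.4% of tested genes showed in that direction. All values of WT-MI samples lay above all values of WT-SH samples for Ccl6, Ccl9, Ccl12 and Ccr2, against 4.5% of tested genes. In these whole-ventricle samples more cells of a type and more RNA per cell cannot be told apart.

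**Figure D1:**
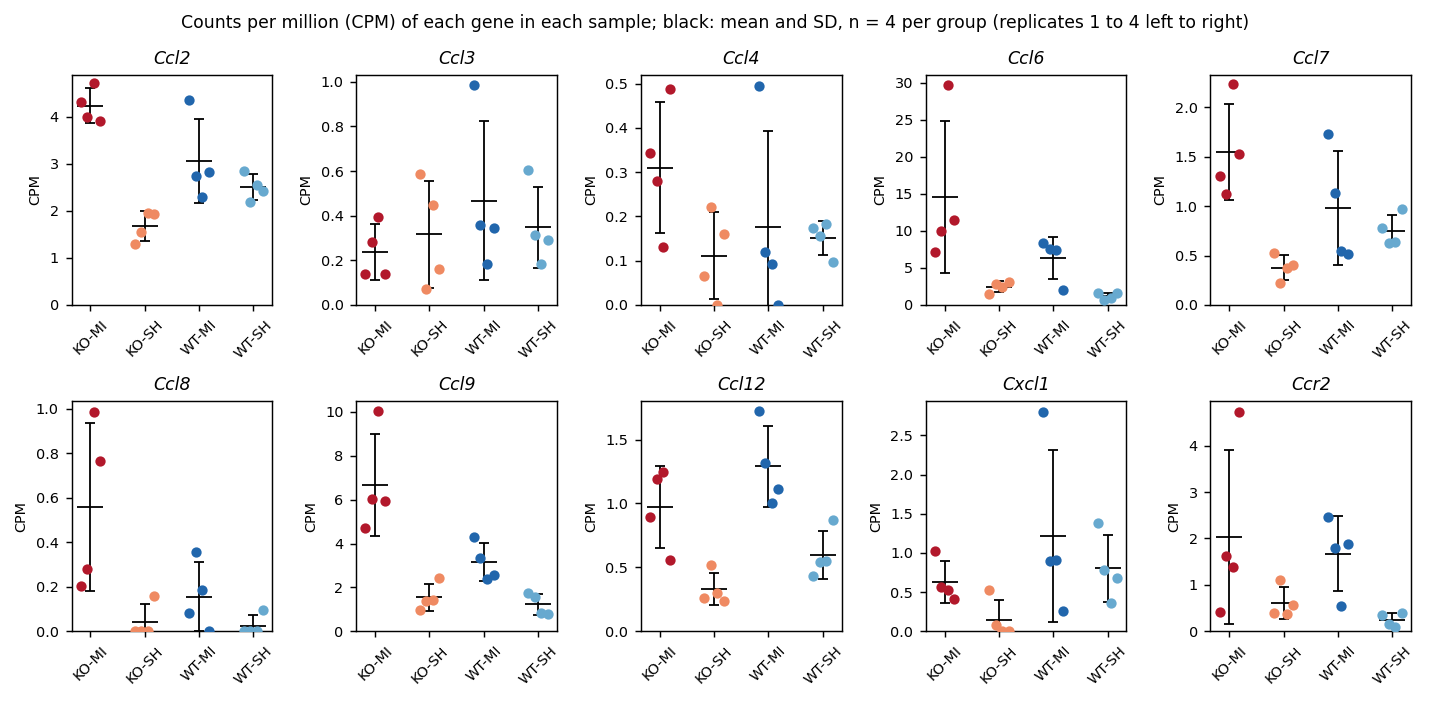
Level of each of the 10 genes in CPM (linear axis from 0, scaled separately per gene) in every sample of KO-MI, KO-SH, WT-MI and WT-SH, with the mean and SD of the 4 samples in black. KO-MI points lie above every KO-SH point for Ccl2, Ccl6, Ccl7, Ccl8, Ccl9 and Ccl12, and single high points set much of the spread of Ccl6 (29.7 CPM) and Ccr2 (4.73 CPM) in KO-MI.

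Ccl2, the main ligand of Ccr2 and the archetypal monocyte chemoattractant, measured 4.32, 3.999, 4.72 and 3.90 CPM in the KO-MI samples and 1.30, 1.54, 1.94 and 1.92 CPM in the KO-SH samples. All infarcted knockout hearts stood above all sham knockout hearts, and replicates within each group were close together. The change was 1.34 on the log2 scale (SE 0.21, adjusted p = 5.01e-04), a 2.53-fold higher level. In wild type it measured 4.36, 2.75, 2.29 and 2.83 CPM in the WT-MI samples and 2.85, 2.18, 2.56 and 2.42 CPM in the WT-SH samples. Only WT-MI replicate 1 exceeded all sham values, and the fold change of 0.29 (log2, SE 0.21, adjusted p = 0.56) did not pass the test.

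The difference between those responses, KO minus WT, was 1.05 for Ccl2 (log2, SE 0.30, adjusted p = 0.0627), short of the threshold. It passed without WT-MI replicate 1 (1.27, adjusted p = 0.0222), without KO-MI replicate 4 (1.09, adjusted p = 0.0494) and, chosen after seeing the data, without the 3 samples highest in lung markers (1.22, adjusted p = 0.0495). The difference had contributions at both ends. After sham surgery every KO-SH sample was below every WT-SH sample (1.68 ± 0.311 CPM against 2.503 ± 0.280 CPM, SD, n = 4 each; log2 −0.58, SE 0.22, adjusted p = 0.0815). Such a separation of the sham groups, in either direction, was seen for 26.3% of tested genes. After infarction KO-MI samples averaged 4.23 ± 0.372 CPM and WT-MI samples 3.06 ± 0.901 CPM, with overlap (log2 0.47, SE 0.20, adjusted p = 0.976).

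Ccl7, the second ligand that mobilises Ccr2-positive monocytes and the neighbour of Ccl2 on the chromosome, followed the same order of groups. It measured 1.30, 1.12, 2.23 and 1.53 CPM in KO-MI samples and 0.521, 0.221, 0.374 and 0.401 CPM in KO-SH samples. The groups did not overlap, and the change was 1.995 (log2, SE 0.40, adjusted p = 0.00289), with 16 to 34 reads per KO-MI sample and 3 to 8 per KO-SH sample. In WT-MI samples it measured 1.73, 1.13, 0.549 and 0.515 CPM, and in WT-SH samples 0.778, 0.624, 0.640 and 0.967 CPM. WT-MI replicates 1 and 2 were above every WT-SH sample and replicates 3 and 4 below every one of them, and the change of 0.41 (log2, SE 0.39, adjusted p = 0.674) did not pass. The response differed by 1.58 between genotypes (KO minus WT, log2, SE 0.57, adjusted p = 0.14). As for Ccl2, all 4 KO-SH samples lay below all 4 WT-SH samples (log2 −0.95, SE 0.45, adjusted p = 0.154). Again, 26.3% of tested genes had sham groups that separated in one direction or the other.

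Markers of mesothelium and epicardium, the outer layer of the heart, had their lowest summed level in the same KO-SH samples. Their 10 genes, none at 0 in any group, summed to 114.7 to 199.1 CPM in KO-MI, 88.9 to 101.8 CPM in KO-SH, 135.7 to 153.8 CPM in WT-MI and 183.5 to 225.6 CPM in WT-SH samples. Of the 10, 8 rose with infarction in knockout hearts, 9 were lower in KO-SH than in WT-SH samples, and in wild type none rose and 1 fell with infarction. Red cell markers were also lower in sham knockout hearts: all 7 with a row were lower in KO-SH than in WT-SH samples, their sums being 1124 to 1859 CPM in KO-MI, 990.7 to 1407 in KO-SH, 1711 to 2116 in WT-MI and 2966 to 4731 in WT-SH samples. Mast cell markers summed to 31.0 to 46.0 CPM in KO-MI, 24.5 to 30.5 in KO-SH, 28.1 to 34.0 in WT-MI and 37.8 to 42.8 in WT-SH samples, and 3 of the 5 tested were lower in KO-SH than in WT-SH samples. Some other lists went the other way after sham surgery. Estimates were higher in KO-SH than in WT-SH samples for all 10 pan-leukocyte, 12 of 16 resident macrophage and 7 of 8 endothelial markers. Of these lists 0, 2 and 2 markers were called higher, and 1 resident macrophage marker was called lower. The part of these cell types in the Ccl2 and Ccl7 values was not tested.

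Ccl12, another monocyte chemoattractant, differed from Ccl2 and Ccl7 in that its highest mean was in infarcted wild-type hearts, though KO-MI and WT-MI values overlapped (log2 −0.41, SE 0.31, adjusted p = 0.976). It measured 0.891, 1.19, 1.25 and 0.557 CPM in KO-MI samples and 0.260, 0.515, 0.299 and 0.241 CPM in KO-SH samples, a change of 1.54 (log2, SE 0.38, adjusted p = 0.0103). KO-MI replicate 4, with 8 reads, was only just above the highest KO-SH sample, with 7 reads. In WT-MI samples it measured 1.73, 1.31, 1.01 and 1.12 CPM against 0.432, 0.546, 0.548 and 0.870 CPM in WT-SH samples. These groups did not overlap either, but the change of 1.11 (log2, SE 0.35) had an adjusted p of 0.106. The difference between the responses was 0.42 (log2, SE 0.52, adjusted p = 0.709).

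Ccl8, the last gene of that chromosomal group and also a monocyte chemoattractant, was close to absent from sham hearts. Reads numbered 3, 4, 15 and 11 in KO-MI samples and 0, 0, 0 and 2 in KO-SH samples. In wild type they numbered 1, 6, 2 and 0 in WT-MI samples and 0, 0, 0 and 1 in WT-SH samples. KO-MI samples lay above all KO-SH samples (exact two-sided permutation test of CPM, n = 4 each, p = 0.0286, the smallest that 4 against 4 allows, unadjusted), whereas WT-MI and WT-SH samples overlapped (exact permutation p = 0.257). Summed over 4 samples, 33 reads in KO-MI against 2 in KO-SH correspond to a ratio of 15.5 (95% counting interval 3.96 to 133), and 9 in WT-MI against 1 in WT-SH to a ratio of 7.99 (1.11 to 350). Between infarcted hearts the sums of 33 in KO-MI and 9 in WT-MI gave a ratio of 3.23 (1.51 to 7.67), while the samples themselves overlapped (exact permutation p = 0.114). With no filter on low counts edgeR gave Ccl8 a change of 3.62 in knockout hearts (log2, adjusted p = 0.0138).

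Ccl6, a myeloid CC chemokine, showed the greatest rise of the tested ligands in each genotype. It measured 7.19, 9.96, 29.7 and 11.4 CPM in KO-MI samples and 1.497, 2.87, 2.47 and 3.13 CPM in KO-SH samples. Every infarcted knockout heart exceeded every sham knockout heart, with replicate 3 far above the others. The change was 2.56 (log2, SE 0.46, adjusted p = 0.00259), a 5.90-fold higher level, and 1.94 (adjusted p = 0.00299) without KO-MI replicate 3.

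In wild type Ccl6 measured 8.31, 7.58, 7.41 and 2.06 CPM in WT-MI samples and 1.56, 0.702, 0.914 and 1.55 CPM in WT-SH samples. The 3 higher infarcted hearts agreed closely, and replicate 4 stood just above the top sham value. The change was 2.44 (log2, SE 0.56, adjusted p = 0.0315), and the difference between genotypes in the response was 0.12 (log2, SE 0.79, adjusted p = 0.956). The wild-type call was sensitive to single samples: of 8 fits that each left out 1 sample, it held only without WT-MI replicate 4 (2.73, adjusted p = 0.012), and in the other 7 the change was 2.23 to 2.62 with adjusted p between 0.0541 and 0.103. It also ended without the 3 samples highest in lung markers (2.09, adjusted p = 0.21).

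Ccl9, the neighbour of Ccl6, gave the smallest p of the 10 genes. It measured 4.73, 6.03, 10.04 and 5.92 CPM in KO-MI samples and 0.976, 1.40, 1.42 and 2.41 CPM in KO-SH samples, with replicate 3 again the highest infarcted knockout heart. The change was 2.12 (log2, SE 0.29, adjusted p = 2.06e-04), a 4.35-fold higher level. In WT-MI samples it measured 4.28, 3.34, 2.38 and 2.57 CPM against 1.73, 1.56, 0.822 and 0.773 CPM in WT-SH samples. These groups did not overlap, and the change was 1.34 (log2, SE 0.33, adjusted p = 0.0349). That call ended without WT-MI replicate 1 (1.16, adjusted p = 0.144), WT-MI replicate 2 (1.31, adjusted p = 0.0665), WT-SH replicate 2 (1.48, adjusted p = 0.0522), WT-SH replicate 3 (1.20, adjusted p = 0.123) or WT-SH replicate 4 (1.19, adjusted p = 0.108), and without the 3 samples highest in lung markers (1.26, adjusted p = 0.11).

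Ccl9 was also the only one of the 10 genes whose infarcted groups did not overlap between genotypes, a separation seen in either direction for 2.11% of tested genes. KO-MI samples averaged 6.68 ± 2.32 CPM and WT-MI samples 3.14 ± 0.863 CPM (SD, n = 4 each). The difference was 1.08 (log2, SE 0.27), with an unadjusted p of 7.29e-04 and an adjusted p of 0.489 in edgeR. In sham hearts the levels overlapped (1.55 ± 0.606 CPM in KO-SH and 1.22 ± 0.494 CPM in WT-SH samples), and the responses differed by 0.78 (KO minus WT, log2, SE 0.45, adjusted p = 0.385).

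Ccl3 and Ccl4, the macrophage inflammatory proteins 1 alpha and 1 beta, were near the limit of detection throughout. Ccl3 had 2, 4, 6 and 2 reads in KO-MI, 9, 1, 6 and 2 in KO-SH, 12, 6, 2 and 4 in WT-MI and 7, 4, 2 and 3 in WT-SH samples, with full overlap of all groups. The ratio of summed reads was 0.729 for KO-MI over KO-SH (95% counting interval 0.336 to 1.55; exact permutation p = 0.571, n = 4 each). For WT-MI over WT-SH it was 1.33 (0.678 to 2.68; exact permutation p = 0.571, n = 4 each). Ccl4 had 5, 4, 2 and 7 reads in KO-MI, 1, 3, 0 and 2 in KO-SH, 6, 2, 1 and 0 in WT-MI and 2, 2, 2 and 1 in WT-SH samples. Its summed reads gave a ratio of 2.81 (1.07 to 8.66) for KO-MI over KO-SH, where samples overlapped (exact permutation p = 0.0857), and 1.14 (0.378 to 3.605) for WT-MI over WT-SH (exact permutation p = 0.971). Changes smaller than these intervals were not detectable at this depth.

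Cxcl1, the neutrophil chemoattractant of the set, did not pass the test in any comparison. It measured 1.03, 0.561, 0.525 and 0.418 CPM in KO-MI samples and 0.521, 0.0735, 0 and 0 CPM in KO-SH samples, whose reads numbered 8, 1, 0 and 0. KO-SH replicate 1 alone overlapped the infarcted hearts, and the change was 1.90 (log2, SE 0.84, adjusted p = 0.126). Without that sample it was 4.20 (adjusted p = 0.0281). In WT-MI samples Cxcl1 measured 2.80, 0.895, 0.915 and 0.258 CPM against 1.38, 0.780, 0.365 and 0.677 CPM in WT-SH samples, a change of 0.58 (log2, SE 0.61, adjusted p = 0.712) that turned to −0.20 without WT-MI replicate 1.

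Cxcl1 had the lowest sham level in knockout hearts relative to wild type: 0.149 ± 0.251 CPM in KO-SH and 0.801 ± 0.426 CPM in WT-SH samples (SD, n = 4 each; log2 −2.25, SE 0.83, adjusted p = 0.0719). The values overlapped only through KO-SH replicate 1, without which the difference was −4.55 (log2, adjusted p = 0.017). Without the 3 samples highest in lung markers, none of them a sham heart, it was −2.25 (log2, adjusted p = 0.0407). DESeq2 gave −2.35 (log2, adjusted p = 0.0338), so the call on Cxcl1 depended on the fit.

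Ccr2, the receptor that marks inflammatory monocytes, measured 0.411, 1.61, 1.38 and 4.73 CPM in KO-MI samples and 0.390, 1.10, 0.374 and 0.561 CPM in KO-SH samples. KO-MI replicate 4 held 68 of the 118 reads of its group, and replicate 1 was within the sham range. The change of 1.73 (log2, SE 0.58, adjusted p = 0.0483) was 0.89 (adjusted p = 0.222) without KO-MI replicate 4. Of the other fits that left out 1 sample, the call also ended without KO-MI replicate 2 (1.83, adjusted p = 0.0736), KO-MI replicate 3 (1.88, adjusted p = 0.0569), KO-SH replicate 1 (1.56, adjusted p = 0.125), KO-SH replicate 3 (1.56, adjusted p = 0.12) or KO-SH replicate 4 (1.70, adjusted p = 0.107).

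In wild type Ccr2 measured 2.47, 1.79, 0.549 and 1.89 CPM in WT-MI samples and 0.346, 0.156, 0.0914 and 0.387 CPM in WT-SH samples. All infarcted hearts were above all sham hearts, and the change of 2.76 (log2, SE 0.73) had an adjusted p of 0.0534 in edgeR and 0.00646 in DESeq2 (2.80, log2). Without WT-MI replicate 3 it was 3.02 (adjusted p = 0.0269) and without the 3 samples highest in lung markers 2.87 (adjusted p = 0.017). The responses differed by −1.03 (KO minus WT, log2, SE 0.99, adjusted p = 0.625), so a greater response in either genotype was not shown.

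The plots of Ccr2 against marker sums set its level beside those of other leukocyte genes and of lung markers. In KO-MI replicate 4, where Ccr2 was highest, the 15 neutrophil markers summed to 133.2 CPM, the 10 pan-leukocyte markers to 195.4 CPM and the 10 lung epithelium markers to 354.6 CPM, each the highest of the 16 samples, while the cardiomyocyte sum of 58810 CPM was the lowest. No lung epithelium marker was at 0 over a whole group. WT-MI replicate 1, second in Ccr2, had 128.5 CPM of neutrophil and 157.3 CPM of lung markers. WT-MI replicate 2 had 1.79 CPM of Ccr2 with 4.90 CPM of lung markers. WT-MI replicate 3, second in lung markers with 178.1 CPM, had the lowest Ccr2 of its group at 0.549 CPM, and WT-SH replicate 1 had 98.1 CPM of lung markers with 0.346 CPM of Ccr2. Lung tissue also contains Ccr2-positive monocytes. The part of lung RNA in the Ccr2 values of any group was not tested beyond the edgeR fit without the 3 samples. In that fit the change of Ccr2 in knockout hearts was 0.89 (log2, adjusted p = 0.181).

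**Figure D2:**
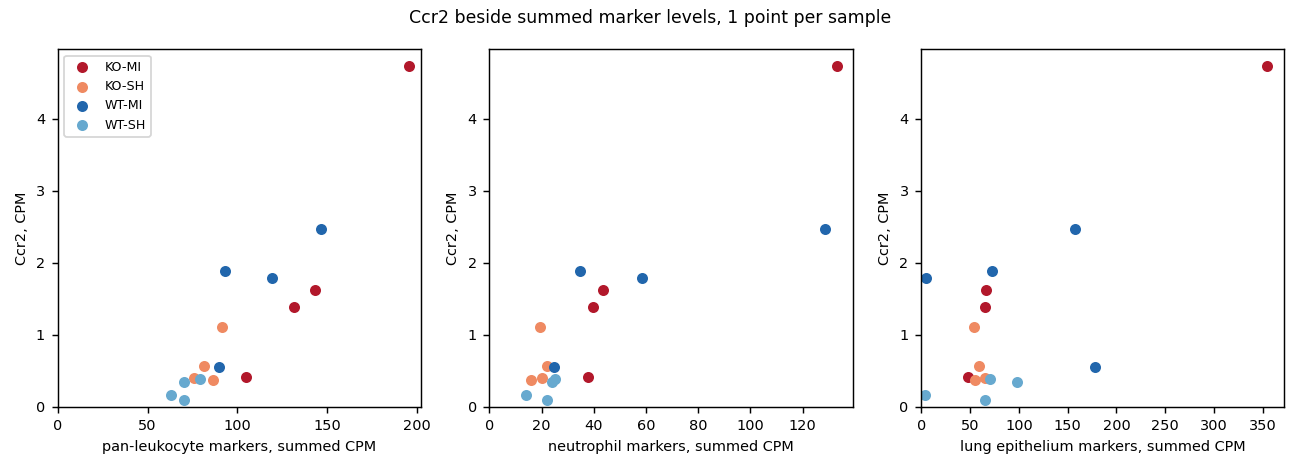
Ccr2 in CPM (vertical axes) against the summed CPM of pan-leukocyte, neutrophil and lung epithelium markers (horizontal axes), 1 point per sample, coloured by group. KO-MI replicate 4 (4.73 CPM of Ccr2) is at the upper right of all 3 panels, and WT-MI replicate 2 (1.79 CPM) has lung markers of 4.90 CPM.

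**Figure D3:**
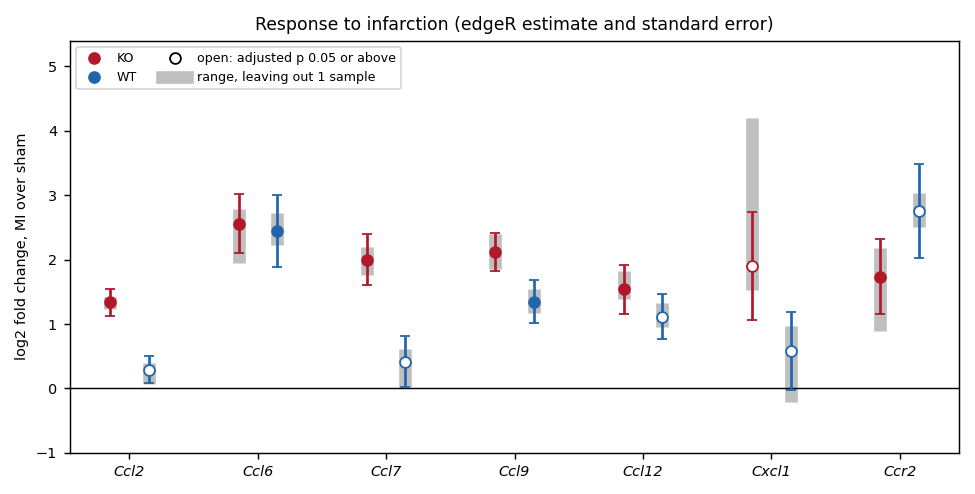
Log2 fold change of MI over sham for the 7 tested genes in KO (red) and WT (blue), with its standard error; filled points passed an adjusted p of 0.05, and grey bars span the 8 fits that each left out 1 sample of the comparison. Filled points are Ccl2, Ccl6, Ccl7, Ccl9, Ccl12 and Ccr2 in knockout hearts, and Ccl6 and Ccl9 in wild type. In knockout hearts the ranges were 1.23 to 1.41 for Ccl2, 1.94 to 2.78 for Ccl6, 0.89 to 2.19 for Ccr2 and 1.52 to 4.20 for Cxcl1.

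The knockout response of Ccl2, Ccl6, Ccl7, Ccl9 and Ccl12 passed the threshold in all 8 fits that each left out 1 sample, with ranges of 1.23 to 1.41, 1.94 to 2.78, 1.76 to 2.198, 1.85 to 2.40 and 1.39 to 1.83 on the log2 scale. In the same fits between 5 and 6 of the 10 genes rose in knockout hearts and between 0 and 2 in wild-type hearts. Passing in one genotype and not the other does not show a difference, and none of the 10 genes passed the test of the difference between responses, which 2.74% of tested genes did; 2 had an unadjusted p under 0.05 (Ccl2 and Ccl7). DESeq2 called none of the 10 in that test, limma voom with sample weights called Ccl2 (1.17, adjusted p = 0.0128) and Ccl7 (1.80, adjusted p = 0.0366).

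Between genotypes after sham surgery none of the 10 genes passed the edgeR test, against 15.3% of tested genes, and 3 had an unadjusted p under 0.05 (Ccl2, Ccl7 and Cxcl1, all lower in KO-SH). Ccl2 and Ccl7 were the 2 genes of the 10 whose sham groups did not overlap, against 26.3% of tested genes. DESeq2 called Cxcl1 alone. Ccl6 went the other way, at 2.49 ± 0.715 CPM in KO-SH and 1.18 ± 0.438 CPM in WT-SH samples (log2 1.07, SE 0.61, adjusted p = 0.244), and passed when only the 8 sham samples were fitted (adjusted p = 0.0163). Ccr2 measured 0.607 ± 0.341 CPM in KO-SH and 0.245 ± 0.143 CPM in WT-SH samples (log2 1.29, SE 0.84, adjusted p = 0.308).

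Between genotypes after infarction none of the 10 passed, against 0.0149% of tested genes (2 genes), and 3 had an unadjusted p under 0.05 (Ccl2, Ccl6 and Ccl9, all higher in KO-MI). DESeq2 called none of the 10 either. Ccl6 averaged 14.6 ± 10.2 CPM in KO-MI and 6.34 ± 2.88 CPM in WT-MI samples (log2 1.19, SE 0.42, adjusted p = 0.942), and 0.58 without KO-MI replicate 3. Ccl7 differed by 0.63 (log2, SE 0.35), Ccl12 by −0.41 (SE 0.31), Cxcl1 by −0.93 (SE 0.61) and Ccr2 by 0.26 (SE 0.51), each with an adjusted p of 0.976 or 0.981. The sign for Ccr2 depended on single samples, being −0.57 without KO-MI replicate 4 and −0.002 without WT-MI replicate 3. These comparisons share samples with the infarction comparisons above, so their values are not independent of them.

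Per length of transcript the order of the genes differed between groups. Levels per length were taken as CPM per kb of the longest principal transcript in the GENCODE annotation, which is 3006 bases for Ccl9 and 5728 for Ccr2 but 511 for Ccl8. In KO-MI samples Ccl6 led with 10.1 ± 7.10 CPM per kb, followed by Ccl2 with 5.21 ± 0.457, whose values overlapped those of Ccl6. Ccl2 was above the next gene, Ccl9 (2.22 ± 0.770), in all 4 samples, and Ccl9, Ccl7 (1.93 ± 0.606) and Ccl12 (1.81 ± 0.592) overlapped each other in succession. In KO-SH samples Ccl2 (2.06 ± 0.383 CPM per kb) and Ccl6 (1.73 ± 0.497) led and overlapped, and the next gene, Ccl12 at 0.612 ± 0.235, was below all values of Ccl6.

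In WT-MI samples Ccl6 (4.40 ± 2.0 CPM per kb), Ccl2 (3.76 ± 1.11) and Ccl12 (2.40 ± 0.591) each overlapped the next. In WT-SH samples Ccl2 stood alone at 3.08 ± 0.345 CPM per kb, above the second gene, Ccl12 (1.12 ± 0.351), in every sample, and Ccl6 had rank 5 at 0.819 ± 0.304. Ccr2 was among the lowest of the 10 per length in every group, at 0.355 ± 0.327 in KO-MI, 0.106 ± 0.0596 in KO-SH, 0.292 ± 0.141 in WT-MI and 0.0428 ± 0.0251 in WT-SH samples. With the union of all exons as length the leading 3 genes were the same in each group, but Cxcl1, whose union is 1875 bases against 953 for its principal transcript, had rank 6 in place of rank 4 in wild-type hearts.

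The 9 ligands together came to between 17.3 and 38.0 CPM per kb in KO-MI, 5.51 and 7.05 in KO-SH, 9.21 and 23.1 in WT-MI and 6.77 and 9.45 in WT-SH samples. Within that sum Ccl6 made up 39.3 ± 10.7% in KO-MI and 27.5 ± 6.11% in KO-SH samples, and 28.3 ± 10.4% in WT-MI and 10.1 ± 2.44% in WT-SH samples (SD, n = 4 each). The share of Ccl6 was thus higher in every WT-MI sample (15.5% or more) than in any WT-SH sample (12.5% or less). The share of Ccl2 was 23.7 ± 6.37% in KO-MI and 33.1 ± 4.13% in KO-SH samples, and 25.99 ± 7.94% in WT-MI and 39.2 ± 5.07% in WT-SH samples. Ccl12 made up 8.04 ± 2.98% in KO-MI and 16.6 ± 4.03% in WT-MI samples, with ranges of 5.06 to 11.4% and 13.9 to 22.6% that did not meet. Shares within a sum move with each other, and they were not tested.

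**Figure D4:**
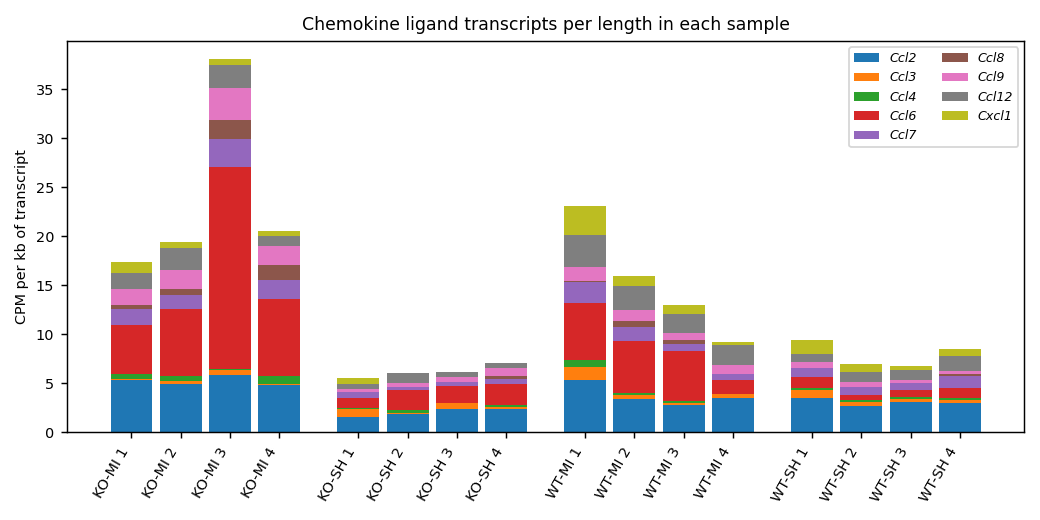
CPM per kb of transcript of the 9 ligands stacked in each of the 16 samples, by group. The stacks reach 17.3 to 38.0 in KO-MI and 5.51 to 7.05 in KO-SH samples, with Ccl6 (red) and Ccl2 (blue) as the main parts, and Ccl6 makes up 54.1% of the tallest, KO-MI replicate 3.

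Among 29 other chemokine ligands, of which 13 were tested, 3 rose (Ccl24, Cxcl13 and Ppbp) and 1 fell (Cxcl12) in knockout hearts after infarction, and 1 rose in wild type (Cxcl16). Ccl24, an eosinophil chemoattractant also made by macrophages, averaged 3.87 ± 3.77 CPM in KO-MI and 0.552 ± 0.325 CPM in KO-SH samples (log2 2.80, SE 0.67, adjusted p = 0.011), against 0.376 ± 0.274 CPM in WT-MI and 0.575 ± 0.190 CPM in WT-SH samples (log2 −0.55, SE 0.94, adjusted p = 0.837). Its KO-MI values ran from 0.418 to 9.25 CPM and overlapped those of KO-SH, and the responses differed by 3.36 (KO minus WT, log2, SE 1.18, adjusted p = 0.139). Cxcl13, a B cell attractant, rose by 4.55 (log2, adjusted p = 0.0186), and Ppbp, a platelet chemokine, by 1.54 (adjusted p = 0.0311) in knockout hearts. In wild type their changes were 4.08 (adjusted p = 0.18) and 1.44 (adjusted p = 0.121). The changes of Cxcl13 had an SE of 1.22 in knockout and 1.46 in wild type. They rest on sham values below the level of 3 counts, at most 0.15 CPM in KO-SH and 0.097 CPM in WT-SH samples. Cxcl13 ran from 0.342 to 2.89 CPM in KO-MI and from 0.0858 to 3.21 CPM in WT-MI samples, and passed the filter only through infarcted hearts.

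Cxcl12, a stromal chemokine that retains leukocytes and progenitors through Cxcr4, averaged 21.8 ± 5.49 CPM in KO-MI and 31.3 ± 2.25 CPM in KO-SH samples (log2 −0.52, SE 0.16, adjusted p = 0.0338). In wild type it averaged 26.6 ± 5.03 CPM in WT-MI and 21.6 ± 4.20 CPM in WT-SH samples (log2 0.30, adjusted p = 0.416), and it was higher in KO-SH than in WT-SH samples (log2 0.54, adjusted p = 0.0325). Cxcl16 rose by 0.59 in wild type (log2, adjusted p = 0.0296) and changed by 0.39 in knockout hearts (adjusted p = 0.0526). Cxcl10, an interferon-induced T cell attractant, changed by 0.54 (adjusted p = 0.382) in knockout and 0.05 (adjusted p = 0.974) in wild type.

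Cxcl5 and Cxcl2, further neutrophil ligands, were too low to be tested in the fit. Cxcl5 averaged 0.716 ± 0.199 CPM in KO-MI and 0.0550 ± 0.0372 CPM in KO-SH samples, without overlap (exact permutation p = 0.0286, n = 4 each), and 0.752 ± 0.892 CPM in WT-MI and 0.1301 ± 0.1498 CPM in WT-SH samples (exact permutation p = 0.143). Cxcl2 overlapped between MI and sham in both genotypes, with up to 2.53 CPM in KO-MI, 0.716 in KO-SH, 3.04 in WT-MI and 0.778 in WT-SH samples. Ccl11, which lies between Ccl7 and Ccl12 on the chromosome, measured 0.131 to 0.209 CPM in KO-MI samples and was at 0 in all KO-SH samples. Those KO-MI values were at or below the level of 3 counts, the limit that a count of 0 allows. Ccl11 reached 0.658 CPM in WT-MI and 0.0914 CPM in WT-SH samples.

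Of 23 other chemokine receptors 11 were tested. Ackr2, a scavenger that takes up CC chemokines without signalling, rose in both genotypes, with 4.998 ± 0.8285 CPM in KO-MI and 2.66 ± 0.419 CPM in KO-SH samples (log2 0.91, adjusted p = 0.00928) and 5.28 ± 1.48 CPM in WT-MI and 2.69 ± 0.754 CPM in WT-SH samples (log2 0.97, adjusted p = 0.0252). Cxcr2, the Cxcl1 receptor on neutrophils, was below the filter but separated in both, at 0.568 ± 0.506 CPM in KO-MI and 0.0918 ± 0.0374 CPM in KO-SH samples, and 1.06 ± 1.11 CPM in WT-MI and 0.0216 ± 0.0432 CPM in WT-SH samples (exact permutation p = 0.0286 for each, n = 4 a group). Ccr1, the receptor for Ccl3, Ccl6 and Ccl9, changed by 0.67 (log2, adjusted p = 0.0731) in knockout and 0.85 (adjusted p = 0.121) in wild type, where groups overlapped.

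Cxcr4 and Cx3cr1 (a receptor of resident macrophages and patrolling monocytes) were higher in KO-SH than in WT-SH samples, by 1.15 (adjusted p = 3.49e-04) and 0.97 (adjusted p = 0.00441) on the log2 scale. Cxcr4 rose with infarction in wild type (9.69 ± 1.57 CPM in WT-MI and 5.06 ± 1.39 CPM in WT-SH samples; log2 0.93, adjusted p = 0.00982). It did not pass in knockout hearts (9.57 ± 1.70 CPM in KO-MI and 11.3 ± 0.902 CPM in KO-SH samples; log2 −0.24, adjusted p = 0.349), and the responses differed by −1.16 (KO minus WT, adjusted p = 0.0149). Cx3cr1 changed by −0.13 in knockout (adjusted p = 0.693) and 0.73 in wild type (adjusted p = 0.0794). Ackr1, the endothelial and red cell chemokine sink, changed by 0.98 in knockout (adjusted p = 0.176) and 2.15 in wild type (adjusted p = 0.06).

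Of 15 NF-kB inducers and feedback genes, 12 of them tested, 1 rose in each genotype, and it was Il1b in both. Il1b, the cytokine interleukin 1 beta, averaged 1.77 ± 0.617 CPM in KO-MI and 0.428 ± 0.140 CPM in KO-SH samples (log2 2.04, SE 0.66, adjusted p = 0.0408), and 3.93 ± 4.42 CPM in WT-MI and 0.5999 ± 0.136 CPM in WT-SH samples (log2 2.70, SE 0.60, adjusted p = 0.0244). Tnf, tumour necrosis factor, was below the filter, at 0.459 to 1.03 CPM in KO-MI, 0.147 to 0.673 in KO-SH, 0.298 to 0.515 in WT-MI and 0.390 to 0.605 in WT-SH samples. Its groups overlapped in both genotypes (exact permutation p = 0.143 in KO and 0.171 in WT, n = 4 each).

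Markers of several leukocyte types rose in the same comparisons, but not those of T, B and natural killer cells. Of 12 such markers 3 were tested, and none was called with infarction in either genotype. Their median log2 change was −0.68 in knockout and 0.71 in wild-type hearts. Of 10 pan-leukocyte markers 8 rose in knockout and 3 in wild-type hearts, against 8.54% and 1.32% of all tested genes. The median log2 change of the 10 was 0.858 in knockout and 0.845 in wild type, with all 10 positive in each. None passed the test of the difference between responses. Their sum ran from 104.9 to 195.4 CPM in KO-MI, 75.6 to 91.7 in KO-SH, 89.8 to 146.3 in WT-MI and 62.8 to 78.9 in WT-SH samples. Of 15 neutrophil markers, 10 of them tested, 7 rose in knockout hearts (among them S100a8 by 2.85, S100a9 by 2.83 and Mmp9 by 1.65 on the log2 scale) and 1 in wild type (Mmp9 by 1.95). The median log2 change of the 10 tested markers was 1.90 in each genotype, and in wild type S100a8 changed by 2.26 (adjusted p = 0.182) and S100a9 by 2.57 (adjusted p = 0.114). The marker sums were 37.8, 43.6, 39.8 and 133.2 CPM in KO-MI and 15.8 to 22.2 in KO-SH samples. In wild type they were 128.5, 58.3, 24.6 and 34.85 CPM in WT-MI and 13.8 to 24.9 in WT-SH samples. KO-MI replicate 4 and WT-MI replicate 1, each far above the rest of its group, were among the 3 samples highest in lung markers. S100a8 ran from 6.10 to 33.1 CPM in KO-MI samples, so the sizes of these changes lean on single samples. Of the 15, 1 was at 0 in all KO-SH samples and 2 in all WT-SH samples.

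Of 10 inflammatory monocyte markers, 9 of them tested, 4 rose in knockout hearts (Chil3, Hp, Ifitm6 and Plac8) and 1 in wild type (F13a1), and Ly6c2 was not among them. Their sum, 494.5 to 1163 CPM in KO-MI, 740 to 860.6 in KO-SH, 836.8 to 1039 in WT-MI and 774.5 to 932.8 in WT-SH samples, overlapped between all groups, but Fn1, which fibroblasts also make, held most of it (803.6 CPM on average in KO-MI, 695.2 in KO-SH, 814.4 in WT-MI and 760.7 in WT-SH samples). The median log2 change of the 9 tested markers was 1.22 in knockout and 0.92 in wild-type hearts, with 8 of 9 positive in each, against medians of 0.01 and −0.01 over all tested genes. Of 16 resident macrophage markers 7 rose in knockout and 5 in wild-type hearts, with sums of 247.6 to 385 CPM in KO-MI, 199.5 to 218 in KO-SH, 203.4 to 285 in WT-MI and 158.9 to 190.2 in WT-SH samples. The part of cell numbers in the chemokine values was not tested.

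Across all 16 samples the levels of the tested genes ran together to different degrees. As a description over samples that share their groups, Pearson's r of log2 CPM was 0.90 between Ccl6 and Ccl9 and 0.88 between Ccl2 and Ccl7, the neighbours on chromosome 11, and 0.53 and 0.54 after subtracting group means. Cxcl1 ran with Ccl7 (r = 0.65, 0.54 within groups) but hardly with Ccl6 (0.20, 0.18 within groups) or Ccr2 (0.11, −0.08 within groups).

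Among the 12749 genes that averaged 1 CPM or more, the pattern nearest to Ccr2 was that of Rac2 (r = 0.92, 0.84 within groups) and Slc11a1 (0.91, 0.85), genes expressed in phagocytes. Nearest to Ccl6 were Xdh (0.94, 0.64) and the leukocyte integrin gene Itgb2 (0.93, 0.69), and nearest to Ccl9 were Xdh (0.90, 0.50) and Ccl6 (0.90, 0.53). Ccl2 ran with Pgd (0.93, 0.69) and the myeloid hexokinase gene Hk3 (0.92, 0.62), and Ccl7 with Anxa5 (0.89, 0.70) and Timp1 (0.88, 0.69). Nearest to Ccl12 were Ankrd37 (0.92, 0.65) and Pdgfb (0.91, 0.66), and nearest to Cxcl1 Raly (0.86, 0.75) and Rmdn3 (0.84, 0.77).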

How the data were processed

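Reads per gene were counted by the authors in 16 libraries made with a kit whose description states no strand marking and sequenced on a HiSeq 4000. The submitters' processing notes name bcl2fastq 2.17, cutadapt 3.4, FastQC, HISAT2 2.2.1, HTSeq 0.13.5, DESeq2 and build GRCm39, while the gene annotation and strand setting are not given in the sources used here. The deposited values are raw counts per gene, and 5 summary lines were left out: reads in no gene were 23.7 to 28.3% and ambiguous reads 1.56 to 2.08% of each library's total. No columns were identical.

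Counts were fitted in edgeR 4.0.16 (R 4.3.3) with TMM scaling, filterByExpr, a mean per group over all 16 samples and the quasi-likelihood F test, two-sided, with Benjamini-Hochberg adjustment over 13412 genes and a threshold of 0.05. Genes below the filter were compared by exact permutation tests of CPM and by summed counts with 95% exact intervals. Alternatives were RLE scaling, DESeq2 1.42.0, no filter, the replicate number as a block, only the 8 samples compared, limma 3.58.1 voom with sample weights, and leaving out each sample or, chosen after seeing the data, the 3 samples highest in lung markers. Only the main edgeR fit was tested on simulated data, with the same dispersion for every gene. The alternatives and the permutation tests were not.

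The 10 genes and the gene lists were chosen with earlier results of these data known. Named besides the 10 were, from 3 lists (chemokine ligands, chemokine receptors, NF-kB genes), up to 4 called genes with the smallest p per comparison and 13 preset genes, and the 2 genes nearest in correlation to each tested gene (log2 CPM, prior count 2). The result of 1 preset gene is not reported here. S100a8, S100a9, Mmp9 and the monocyte markers named were picked after their values were seen. Symbols came from a gene name table that matched 22362 of 22468 identifiers, and transcript lengths and gene order from GENCODE on GRCm38.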

Additional observations from a re-analysis of the deposited data

Results flagged for a closer look

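Of 40 sets of 4 samples (10 genes in 4 groups), 4 held a sample far from the other 3 by Dixon's criterion. Chance alone meets it in about 1 of 20 sets of normally distributed values, a rate that does not hold for low counts. A set with 0 reads in 3 samples and any read in the other always meets it, as for Ccl8 below. Ccl6 measured 2.06 CPM in WT-MI replicate 4 (24 reads), with the other 3 infarcted wild-type hearts between 7.41 and 8.31 CPM. Cxcl1 measured 0.521 CPM in KO-SH replicate 1 (8 reads), with the other 3 between 0 and 0.0735 CPM. Ccl8 measured 0.160 CPM in KO-SH replicate 4 (2 reads) and 0.0967 CPM in WT-SH replicate 4 (1 read), with 0 reads in the other 3 samples of each group, so that these last flags rest on 1 or 2 reads.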

How the results depend on the processing

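All changes of Ccl2, Ccl6, Ccl7, Ccl9 and Ccl12 with infarction in knockout hearts kept their direction and stayed past the threshold under every alternative that gave a value. Ccl12 did not pass the filter when only the 8 knockout samples were fitted. Of the 10 genes, the number called differed from the 6, 2, 0, 0 and 0 of the report as follows. In knockout hearts it was 7 with DESeq2 and with the replicate block, 4 with only 8 samples and 5 without the 3 samples highest in lung markers. In wild type after infarction it was 1 with no filter, with voom and without those 3 samples. After sham surgery it was 1 with DESeq2, with the replicate block, with only 8 samples and without those 3 samples, and 2 with voom. For the difference between responses it was 2 with voom and 1 without those 3 samples. Leaving out 1 sample gave 5 to 6 in KO, 0 to 2 in WT, 0 to 1 after sham, 0 after infarction and 0 to 1 for the difference. Equal totals can hold different genes. Ccl8, not tested in the main fit, passed in knockout hearts with DESeq2 (adjusted p = 0.0249) and with edgeR and no filter (adjusted p = 0.0138). The unchanged total with no filter thus held Ccl8 in place of Ccr2. In wild type DESeq2 called Ccr2 within an unchanged total, so Ccl6 and Ccl9 did not both pass there. Over all genes, the number called in knockout hearts was 2220 and 4796 with voom. In wild type it was 302, and 500 with DESeq2, 185 with only 8 samples and 495 with voom. After sham it was 2057, and 3211 with only 8 samples and 3901 with voom. After infarction it was 2, and 11 with DESeq2, 1 with only 8 samples and 1 without the 3 lung-high samples. For the difference it was 368, and 627 with DESeq2, 1524 with voom and 240 without those 3. Leaving out 1 sample gave 1230 to 2931, 86 to 385, 1298 to 2077, 1 to 4 and 178 to 817 in the same order. Signs turned for Ccr2 between infarcted groups (−0.44 with voom, −0.69 without the 3 lung-high samples, −0.57 to 0.60 leaving out 1 sample), for Cxcl1 between infarcted groups (0.20 without those 3), for Cxcl1 in wild type (−0.40 without those 3, −0.20 to 0.97 leaving out 1 sample) and for Ccl6 in the difference (−0.50 to 0.34 leaving out 1 sample). The cause was not tested. Same-numbered samples of different groups correlated in their deviations from group means with a median r of 0.01 (24 pairs, 4 over 0.1, highest 0.475). Differently numbered samples of different groups had a median r of −0.006 (72 pairs, 8 over 0.1, highest 0.210). The medians show no general pairing by number, but they cannot exclude a link between some same-numbered samples. With the replicate block Ccl9 in wild type changed by 1.35 (adjusted p = 0.0585), Ccr2 in wild type by 2.78 (adjusted p = 0.0316), Cxcl1 in knockout by 2.10 (adjusted p = 0.0218) and Cxcl1 between sham groups by −2.42 (adjusted p = 0.0103). Depth limits Ccl3, Ccl4, Ccl8 and Cxcl1, with 72, 40, 45 and 145 reads over all 16 samples.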
